A study of Canis lupus familiaris with 33 samples.

Results

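The genes described here are those annotated at the positions of VWF and ABCB1, 2 genes of the blood vessel wall, among the 30951 genes of a count table of dog brain. They were chosen by position: VWF on chromosome 27 and ABCB1 on chromosome 14 of the CanFam3.1 assembly. The deposited table names no genes, and 0 of its Ensembl identifiers were paired with a name by the RefSeq table at hand. Each position lay in the span of 1 gene, so 2 of 30951 genes were members.

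The study asked whether archived tissue can stand in for frozen tissue in the search for antigens of canine oligodendroglioma, a glial brain tumour. It holds 33 RNA sequencing libraries of 25 dogs, and tissue was collected at necropsy 1 to 18 hours after death. The formalin-fixed, paraffin-embedded (FFPE) tumours came from 11 dogs (4 Boxers, 6 French Bulldogs and a Pomerian; 9 of grade III and 2 of grade II; stated ages 4.7 to 12 years). The FFPE controls, brain that the labels call healthy, came from 10 dogs (4 Boxers, 5 French Bulldogs and a Bolonka Swetna; stated ages 2 to 8 years). Fresh-frozen tumours came from 6 dogs (3 French Bulldogs, a Boxer, a Border Terrier and a Pomerian; 5 of grade III and 1 of grade II; 4.7 to 10 years). Fresh-frozen controls came from 6 dogs (2 French Bulldogs, a Hovawart, a Mongrel, a Berner sennenhund and a Bolonka Swetna; 2.8 to 10.2 years). Both kinds of library exist for 8 dogs, 5 with a tumour and 3 controls. The labels do not give the brain region, the share of vessels or the share of tumour cells in a block. Tissue could not be checked against marker genes, because the table pairs no identifier with a name.

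Von Willebrand factor, the product of VWF, is made by endothelial cells and by the precursors of platelets. Endothelial cells store it in secretory granules. Once released it tethers platelets to injured vessel walls and carries coagulation factor VIII, and its transcript is widely used as an endothelial marker. ABCB1 encodes P-glycoprotein, an ATP-driven pump on the blood side of brain capillary endothelium. It returns many lipophilic drugs to the blood and is a defining transporter of the blood-brain barrier. In bulk tissue, fewer endothelial cells and less RNA per cell cannot be told apart.

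The gene on chromosome 27, ENSCAFG00000015228, went against its label. It ran from 38833837 to 39320142 on the forward strand, a span of 486306 bp with 79 distinct exons and 13666 bp of exonic sequence, where VWF has about 52 exons. Its first 55 exons lay within 143032 bp, and the other 24 followed a gap of more than 20 kb and were spread over 320577 bp. In the RefSeq table, made on another assembly (UU_Cfam_GSD_1.0), VWF spans 138067 bp. Its neighbour there is ANO2, which encodes a calcium-activated chloride channel and spans 341963 bp. Counts were given per gene and not per exon, so fragments of VWF and of any neighbouring transcript in this span cannot be told apart. It is called the VWF locus gene here, and its values are not those of VWF alone.

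The gene on chromosome 14, ENSCAFG00000001835, fitted its label more closely. It ran from 13542647 to 13742727 on the reverse strand with 30 distinct exons and 4686 bp of exonic sequence, where ABCB1 has about 28 exons. Its first annotated exon by position, of 225 bp, stood apart from the rest by 101706 bp. The other 29 exons spanned 98150 bp, beside 97409 bp for ABCB1 in the RefSeq table. A gene of 26 exons on the same strand, ENSCAFG00000001833, lay in that gap and shared 0 exonic bases with ABCB1. In order, 20 of its exons had the same length as an exon of ABCB1. RefSeq places ABCB4, a related transporter, next to ABCB1, but the files give the 26-exon gene no name. Fragments below the mapping quality limit were not counted, and the part of sequence shared by this pair was not tested.

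**Figure D1:**
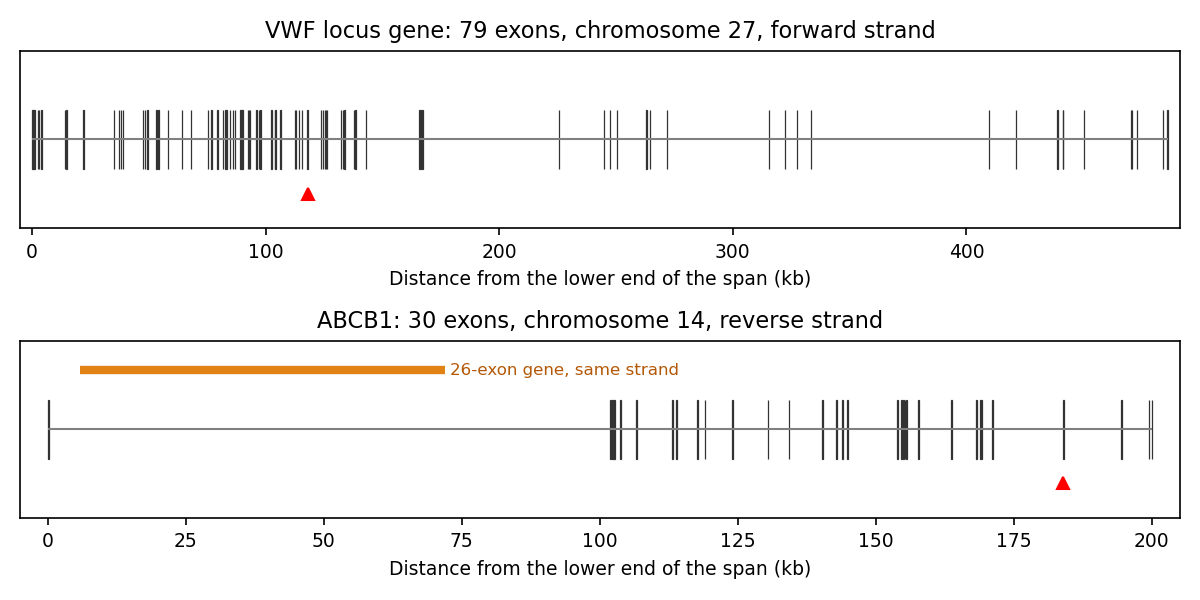
Exon layout of both genes, as distance in kb from the lower end of each span; vertical bars are exons, the red triangle is the position used to find the gene, and the orange bar is the other gene on the same strand. The VWF locus gene has 79 exons, dense in its first 143032 bp and sparse after them, and ABCB1 has 29 exons together with 1 far from them.

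Depth differed between the groups. Library totals ran from 1752162 to 12501029 counts in FFPE tumours, 406406 to 32584840 in FFPE controls, 9765907 to 25168080 in fresh-frozen tumours and 15255966 to 26726025 in fresh-frozen controls. Counts of the VWF locus gene were 343 to 2286 per library in FFPE tumours, 114 to 3495 in FFPE controls, 720 to 5148 in fresh-frozen tumours and 1049 to 3815 in fresh-frozen controls. ABCB1 had far fewer, with 36 to 468 counts in FFPE tumours, 1 to 671 in FFPE controls, 191 to 1444 in fresh-frozen tumours and 173 to 888 in fresh-frozen controls. Levels below are CPM, counts scaled to a common library size with TMM over all 33 libraries. Log2 CPM values add a prior count of 2.

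Per kb of exonic sequence the VWF locus gene was the higher of the pair in every group by its median. The median was 9.56 FPKM (CPM divided by exonic kb) in FFPE tumours, 14.1 in FFPE controls, 7.67 in fresh-frozen tumours and 7.84 in fresh-frozen controls. ABCB1 had median levels of 5.81 FPKM in FFPE tumours, 4.59 in FFPE controls, 6.96 in fresh-frozen tumours and 5.36 in fresh-frozen controls. Both were thus of middling level among the 15714 genes kept by a filter on low counts, and the other genes of the table were not ranked. By median FPKM the VWF locus gene stood above 47.6% to 65.3% of 15714 genes, depending on the group, and ABCB1 above 34.7% to 45.3%.

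In FFPE tissue neither gene passed the test between tumour and control. The VWF locus gene ran from 99.3 to 801 CPM in tumours with a median of 131, against 77.1 to 548 CPM in controls with a median of 193. The groups overlapped: 2 of 11 tumours, those of dogs 43917 (801 CPM) and 60177 (664 CPM), lay above every control, and 0 lay below every control. The 11 FFPE tumours averaged 7.69 ± 1.09 log2 CPM and the 10 FFPE controls 7.70 ± 0.86 (± SD). The log2 fold change was 0.09 ± 0.42 (SE; 95% interval -0.79 to 0.96; edgeR quasi-likelihood adjusted p = 0.906). This small value changed sign without tumour 43917 (-0.22), tumour 60177 (-0.11) or control 60126 (-0.02), so it has no firm direction, and the median was lower in tumours than in controls. In the 13 dogs without a frozen library it was 0.50 (edgeR adjusted p = 0.491).

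ABCB1 ran from 13.7 to 50.9 CPM in FFPE tumours with a median of 27.2, against 2.94 to 32.7 CPM in FFPE controls with a median of 21.5. Here 7 of 11 tumours lay above the control median and 4 above every control, and the other 7 lay within the control range. The lower end of that range rests on 1 count, in control 50315. Tumours 50416 (13.71 CPM) and 60792 (13.74 CPM) lay below the next lowest control, dog 61478 (14.03 CPM). The 11 tumours averaged 4.65 ± 0.67 log2 CPM and the 10 controls 4.18 ± 0.97 (± SD). The log2 fold change was 0.31 ± 0.28 (SE; 95% interval -0.27 to 0.88; edgeR adjusted p = 0.446), and in the 13 dogs without a frozen library it was 0.16 (edgeR adjusted p = 0.804). Of the 13338 genes tested in this comparison 21.1% passed, 10.1% higher and 11.1% lower in tumours, so 0 of 2 members is within the background. A p that misses the threshold does not show equal levels, and the intervals leave room for changes approaching 2-fold in either direction for the VWF locus gene.

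**Figure D2:**
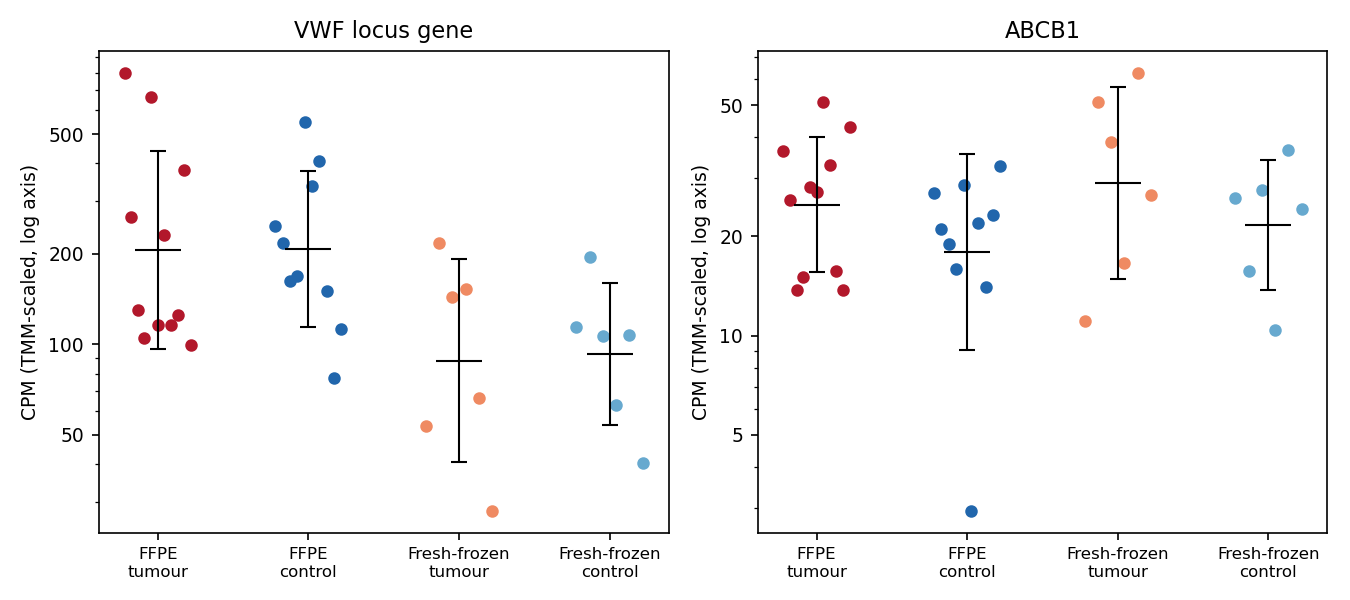
Level of each gene in each of the 33 libraries, in TMM-scaled CPM on a log axis; points are libraries, and black bars are the mean ± SD on the log2 scale of 11, 10, 6 and 6 libraries. Tumour and control libraries overlap for both genes in both preservations, and the FFPE control at 2.94 CPM of ABCB1 rests on 1 count.

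Fresh-frozen tissue, with deeper libraries, gave the same outcome. Levels of the VWF locus gene ran from 27.96 to 218 CPM in fresh-frozen tumours with a median of 105, against 40.3 to 195 CPM in fresh-frozen controls with a median of 107. The tumours reached further at both ends, with dog 60636 above every control and dog 60461 below every control. The 6 frozen tumours averaged 6.47 ± 1.12 log2 CPM and the 6 frozen controls 6.54 ± 0.78 (± SD). Tumour over control gave a log2 fold change of 0.11 ± 0.47 (SE; 95% interval -0.89 to 1.12; edgeR adjusted p = 0.875), opposite in sign to the difference of medians and of mean log2 levels. It too changed sign with single libraries, without tumours 60636 (-0.26), 60679 (-0.05) or 60749 (-0.06) or without controls 60629 (-0.01) or 60462 (-0.06).

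ABCB1 ran from 11.1 to 62.7 CPM in fresh-frozen tumours with a median of 32.6, against 10.4 to 36.5 CPM in fresh-frozen controls with a median of 25.1. The tumours of dogs 60127 (62.7 CPM), 60636 (51.2 CPM) and 60679 (38.6 CPM) lay above every control, and the other 3 lay within the control range. Mean levels were 4.87 ± 0.96 log2 CPM over the 6 tumours and 4.45 ± 0.65 over the 6 controls (± SD). Tumour over control gave a log2 fold change of 0.57 ± 0.40 (SE; 95% interval -0.30 to 1.44; edgeR adjusted p = 0.291). It ranged from 0.31 without tumour 60127 to 0.74 without control 60126. In this comparison 30.5% of 15057 tested genes passed, 18.3% higher and 12.2% lower in tumours, and 0 of 2 members did.

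A principal component analysis of log2 CPM used genes that passed the count filters, both members included, after each group's mean was taken away. Its second component divided the frozen libraries into 2 sets. Set B held 4 dogs (tumours 60127 and 60461, controls 60126 and 60462) and set A held 8. The VWF locus gene had 53.6 to 218 CPM in set A tumours, against 62.9 to 195 CPM in set A controls. In set B it had 27.96 and 66.2 CPM in tumours, against 40.3 and 108 CPM in controls. Its log2 fold change was 0.20 within set A (edgeR adjusted p = 0.768) and -0.65 within set B (edgeR adjusted p = 0.537). For ABCB1 the values were 0.51 within set A (edgeR adjusted p = 0.484) and 0.56 within set B (edgeR adjusted p = 0.492). The fitted value of ABCB1 was thus positive in both sets and that of the VWF locus gene in set A alone, and none passed the test. Of all genes tested with edgeR, 2291 of 15106 (15.2%) passed within set A. Within set B, with 2 tumours and 2 controls, 0 of 15724 passed and 4118 had an unadjusted p under 0.05, so that the members missed the threshold there says nothing about them.

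Spread among dogs was wide for both genes in frozen tissue. The highest fresh-frozen tumour had 7.80 times the CPM of the lowest for the VWF locus gene and 5.66 times for ABCB1. Among fresh-frozen controls the corresponding values were 4.84 and 3.51. The SD of log2 CPM of the VWF locus gene was larger than that of 81.6% of 15714 genes in fresh-frozen tumours and 85.7% in fresh-frozen controls. For ABCB1 these shares were 74.6% and 75.3%. In FFPE tissue, where the median gene varied more, the shares were lower, at 72.4% in tumours and 48.4% in controls for the VWF locus gene and 40.2% and 54.7% for ABCB1.

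**Figure D3:**
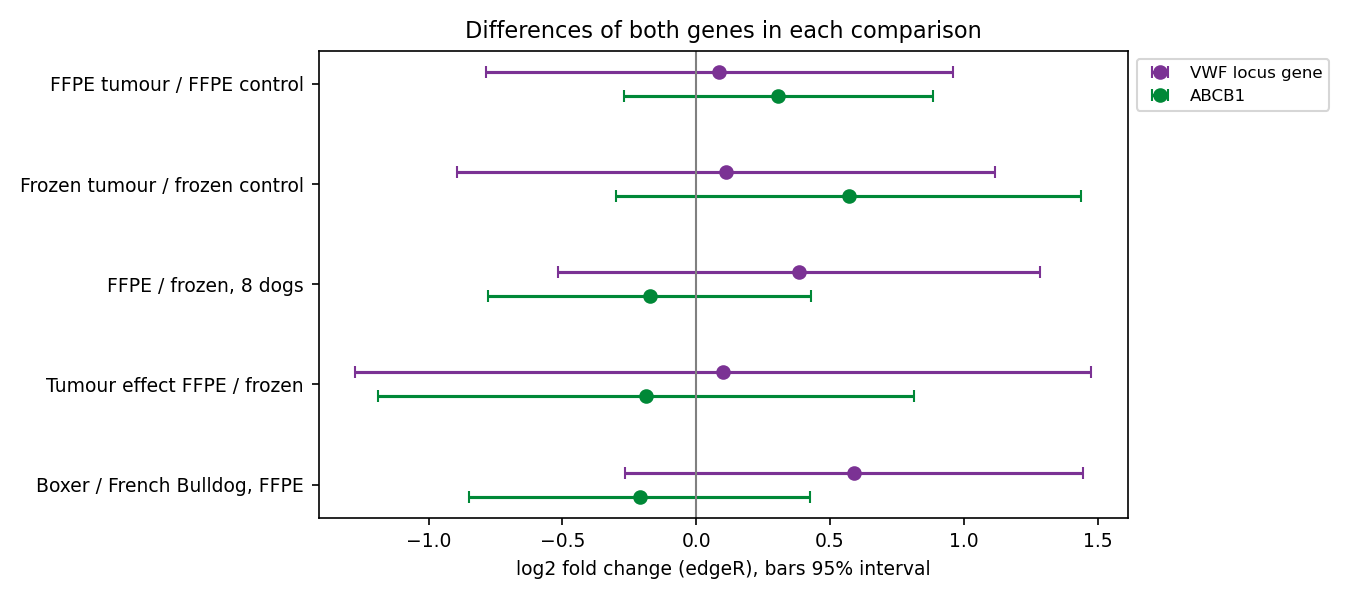
Log2 fold changes of both genes in the 5 planned comparisons, each written as first group over second, with 95% intervals from edgeR. Every interval includes 0, with values between -0.21 for ABCB1 and 0.59 for the VWF locus gene, both between breeds.

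The effect of preservation was compared in the 8 dogs with both kinds of block, with tissue as a covariate and no term for the dog. In 5 dogs the VWF locus gene was higher in the FFPE library and in 3 it was lower. The largest gap was in tumour dog 60461, with 116 CPM in FFPE and 27.96 CPM in frozen tissue. Control dogs 60460 (409 CPM in FFPE, 195 CPM frozen) and 60462 (113 CPM in FFPE, 40.3 CPM frozen) differed the same way, and control dog 60126 the other way (77.1 CPM in FFPE, 108 CPM frozen). The log2 fold change of FFPE over frozen tissue was 0.38 ± 0.43 (SE; 95% interval -0.52 to 1.29; edgeR adjusted p = 0.678). In the paired fit, with the dog as a block, it was 0.47 ± 0.28 (SE, edgeR adjusted p = 0.307).

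Differences within a dog, FFPE minus frozen, averaged -0.07 ± 0.41 log2 CPM for ABCB1 and 0.52 ± 0.93 for the VWF locus gene (SD, n = 8), a contrast in spread that was not tested. Tumour dog 60636 had 50.9 CPM in FFPE and 51.2 CPM in frozen tissue, dog 60461 had 27.2 and 26.6 CPM, and dog 60749 had 15.7 and 16.6 CPM. Dogs 60679 (32.9 CPM in FFPE, 38.6 CPM frozen) and 60127 (42.8 CPM in FFPE, 62.7 CPM frozen) were lower in FFPE. Among controls, dogs 60460 (21.99 CPM in FFPE, 15.7 CPM frozen) and 60462 (32.7 CPM in FFPE, 24.1 CPM frozen) were higher in FFPE, and dog 60126 was lower (23.1 CPM in FFPE, 36.5 CPM frozen). The log2 fold change was -0.17 ± 0.29 (SE; 95% interval -0.78 to 0.43; edgeR adjusted p = 0.790). With the dog as a block it was -0.12 ± 0.17 (SE, edgeR adjusted p = 0.693). Of 17097 genes tested between preservations 2.95% passed, 2.81% higher and 0.135% lower in FFPE, and 0 of 2 members did.

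Dogs with a high ABCB1 level in one kind of block mostly had a high level in the other. Over the 8 dogs the FFPE and frozen log2 CPM of ABCB1 correlated with a Pearson r of 0.83 (exact permutation p = 0.0116, adjusted p = 0.0232 over 2 genes) and a Spearman rho of 0.86 (exact permutation p = 0.0107, adjusted p = 0.0214). Without the 2 dogs farthest from the median frozen level r was 0.80. The VWF locus gene had a Pearson r of 0.54 (exact permutation p = 0.120) and a Spearman rho of 0.64 (exact permutation p = 0.0962), which did not pass, and r was 0.74 without the 2 dogs farthest from the median. Over all 15714 genes the median r was 0.56, and that of ABCB1 exceeded 87.1% of them. Tumour and control dogs and both sets were pooled here, and correlations within sets A and B, of 4 dogs each, were not computed. These correlations were added after the values had been seen.

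**Figure D4:**
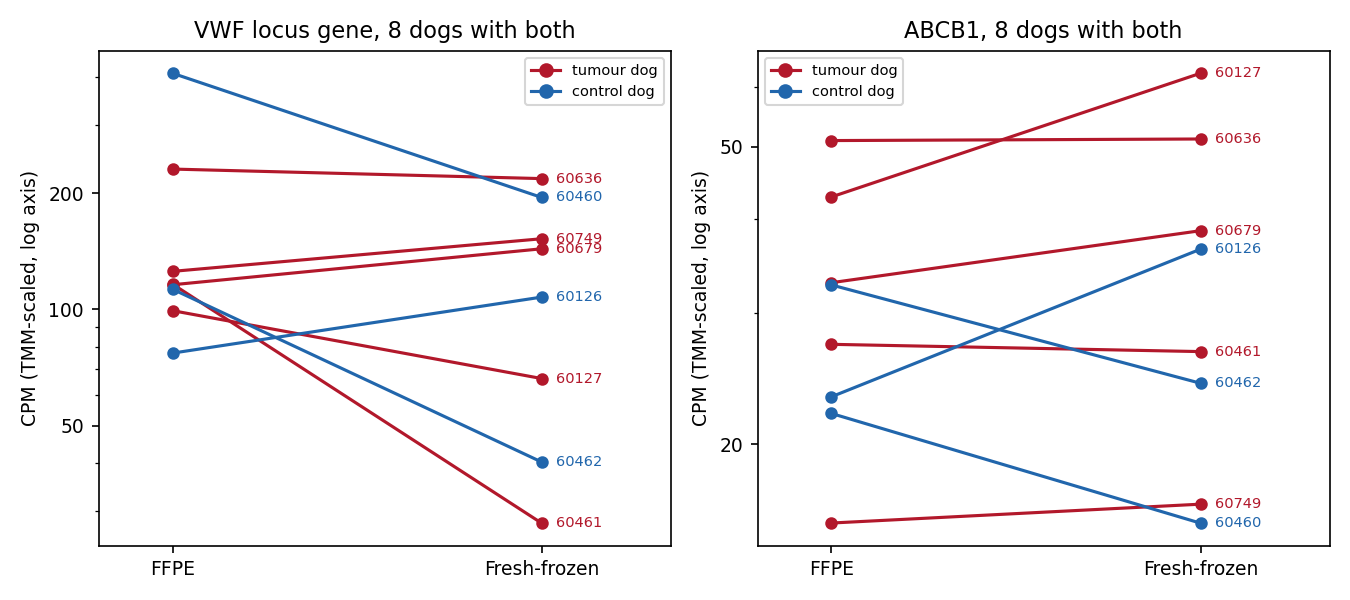
Level of each gene in the FFPE and the fresh-frozen library of the same 8 dogs, in TMM-scaled CPM on a log axis; each line joins both libraries of a dog, red for tumour and blue for control. Dog 60461 has 116 CPM of the VWF locus gene in FFPE and 27.96 CPM in frozen tissue, and 27.2 and 26.6 CPM of ABCB1.

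The tumour effect did not pass a test of difference between preservations for either gene. The interaction had a log2 value of 0.10 ± 0.68 for the VWF locus gene (SE; 95% interval -1.27 to 1.48; edgeR adjusted p = 1.000) and -0.19 ± 0.49 for ABCB1 (SE; 95% interval -1.19 to 0.81; edgeR adjusted p = 1.000). No gene of 15714 passed with edgeR (0%), 575 had an unadjusted p under 0.05, and DESeq2 called 7. The edgeR fit had no term for the dog, though 8 dogs gave both kinds of library. With the dog as a block in limma the interaction was -0.12 ± 0.57 for the VWF locus gene and -0.13 ± 0.39 for ABCB1 (SE). The edgeR intervals are wide and leave differences of more than 2-fold possible.

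Breed was compared in FFPE tissue, where Boxers and French Bulldogs both had tumours and controls. In tumours the VWF locus gene had a median of 255 CPM in 4 Boxers (116 to 801) against 178 CPM in 6 French Bulldogs (105 to 664). In controls the medians were 291 CPM in 4 Boxers (151 to 548) and 169 CPM in 5 French Bulldogs (113 to 409). Boxers were thus higher by the median in both tissues, with overlapping ranges. Breed moved with the presence of a frozen library, which 7 Boxers and 6 French Bulldogs lacked and 1 Boxer and 5 French Bulldogs had. The part of that split in the breed difference of each gene was not tested. With tissue as a covariate the log2 fold change of Boxer over French Bulldog was 0.59 ± 0.41 (SE; 95% interval -0.26 to 1.45; edgeR adjusted p = 1.000). Single libraries moved it, to 0.25 without tumour 43917 and 0.88 without tumour 60177 (edgeR unadjusted p = 0.0292, adjusted p = 1.000).

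ABCB1 went the other way by its fitted value and did not pass either. Its medians were 20.5 CPM in Boxer tumours (13.7 to 36.1) and 27.01 CPM in French Bulldog tumours (15.1 to 50.9). In controls they were 20.6 CPM in Boxers (2.94 to 28.6) and 21.04 CPM in French Bulldogs (15.96 to 32.7). The log2 fold change was -0.21 ± 0.31 (SE; 95% interval -0.85 to 0.43; edgeR adjusted p = 1.000), and it ran from -0.35 without tumour 43917 to -0.10 without tumour 60636. No gene of 13296 passed with edgeR between breeds (0%), 560 had an unadjusted p under 0.05, and DESeq2 called 6. The 2 grade II tumours lay within the range of grade III tumours, dog 51234 with 105 CPM of the VWF locus gene and 15.1 CPM of ABCB1 and dog 60679 with 116 and 32.9 CPM in FFPE tissue.

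The ratio of both genes within a library needs no scaling between libraries. The ratio of counts per kb, VWF locus gene over ABCB1, had a median of 2.73 in FFPE tumours (0.794 to 9.38) and 3.56 in FFPE controls (1.14 to 26.2). In fresh-frozen tissue the median was 1.37 in tumours (0.360 to 3.14) and 1.41 in controls (0.572 to 4.25). On the log2 scale, tumour minus control was -0.43 in FFPE tissue (two-sided exact permutation p = 0.443, adjusted p = 0.446 over 5 ratio tests) and -0.50 in fresh-frozen tissue (exact permutation p = 0.446, adjusted p = 0.446). Without FFPE control 50315, whose ratio rests on 1 count of ABCB1, the FFPE difference was -0.12 (exact permutation p = 0.810), and over all single libraries left out it ran from -0.62 to -0.12. The fresh-frozen difference ran from -0.82 without tumour 60749 to -0.19 without control 60460, and it was -0.21 within set A (exact permutation p = 0.600). Each of these differences was smaller than the SD among dogs of a group.

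The largest of the 5 differences in the ratio was between dogs with and without a frozen library, a comparison added after the values had been seen. FFPE libraries of the 13 dogs without a frozen library had ratios of 2.37 to 26.2 (median 3.60), against 0.794 to 6.36 (median 1.33) in the 8 dogs with a frozen library. The log2 difference, tested within tissue, was 1.57 (exact permutation p = 0.00240, adjusted p = 0.0120). Depth moved with it, since the 13 libraries had 406406 to 5704466 counts and the 8 had 1596967 to 32584840, and its part in the result was not tested. Breed moved with it too, with 7 Boxers and 6 French Bulldogs among the 13 dogs, against 1 Boxer, 5 French Bulldogs and 2 dogs of other breeds among the 8. Within tissue and breed the difference was 1.08 (9 against 6 libraries; exact permutation p = 0.0375), and in French Bulldogs alone it was 0.81 (6 against 5 libraries; exact permutation p = 0.155). All 4 dogs of set B were among the 8, and without them the difference was 0.95 (13 against 4 libraries; exact permutation p = 0.126). In frozen tissue the 4 set B ratios (0.360 to 1.01) lay below all 8 set A ratios (1.27 to 4.25), a separation that cannot be tested because the sets were drawn from these libraries.

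Each gene alone did not pass that comparison. With tissue as a covariate the log2 fold change of archive-only dogs over dogs with a frozen library was 1.05 ± 0.40 for the VWF locus gene (SE; 95% interval 0.22 to 1.89; edgeR unadjusted p = 0.0155, adjusted p = 0.112) and -0.49 ± 0.27 for ABCB1 (SE; 95% interval -1.06 to 0.07; edgeR adjusted p = 0.266). The interval of the VWF locus gene, not adjusted for the number of genes, excludes 0. In tumours the VWF locus gene had a median of 323 CPM in 6 archive-only dogs and 116 CPM in the other 5. In controls the medians were 217 CPM in 7 archive-only dogs and 113 CPM in the other 3. Of 13338 tested genes 5.55% passed, 3.66% higher and 1.89% lower in archive-only dogs, and 0 of 2 members did. FFPE over frozen tissue in the 8 shared dogs moved the log2 ratio by 0.59 (exact sign-flip permutation p = 0.0703, adjusted p = 0.152), and Boxer over French Bulldog by 0.89 (exact permutation within tissue p = 0.0912, adjusted p = 0.152). The ratio test between breeds was also not planned. Among archive-only dogs the Boxer difference was 0.81 (7 against 6 libraries; exact permutation p = 0.147).

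**Figure D5:**
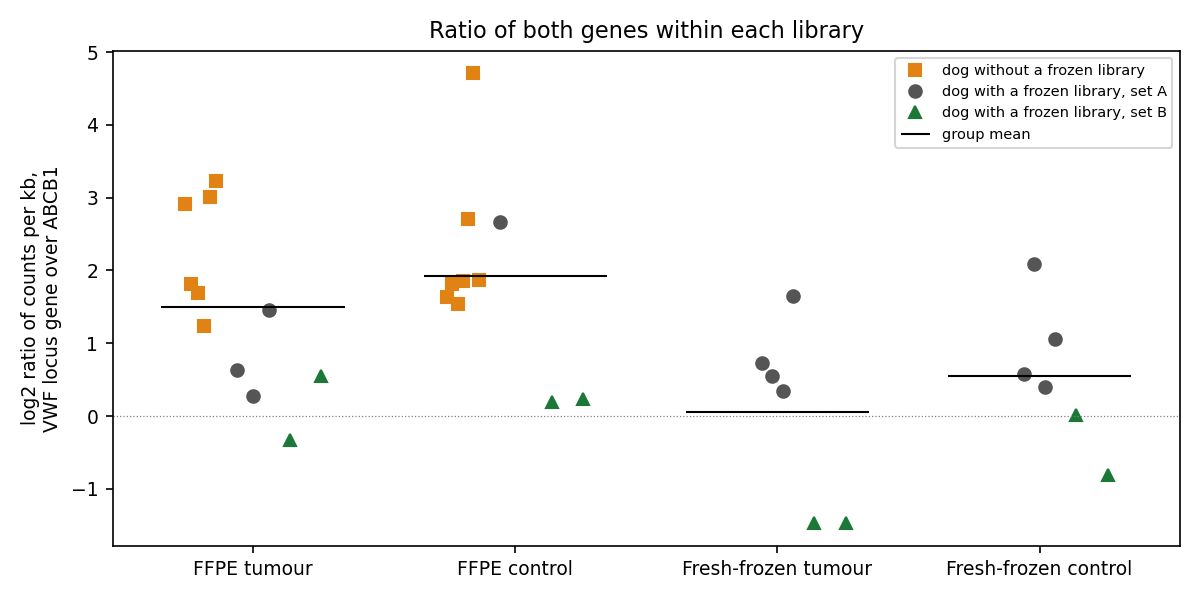
Log2 ratio of counts per kb of the VWF locus gene over ABCB1 in each library, by group; squares are dogs without a frozen library, circles dogs of set A, triangles dogs of set B and lines group means. Squares lie at ratios of 2.37 or more and the 4 frozen triangles at 1.01 or less, while tumour and control overlap.

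No correlation between both genes passed the test among dogs of a group. The Pearson r of their log2 CPM was 0.17 in 11 FFPE tumours (permutation p = 0.611), -0.20 in 10 FFPE controls (permutation p = 0.592), 0.27 in 6 fresh-frozen tumours (exact permutation p = 0.564) and 0.08 in 6 fresh-frozen controls (exact permutation p = 0.853). The Spearman rho was -0.02 (permutation p = 0.966), -0.01 (permutation p = 0.998), 0.31 (exact permutation p = 0.564) and 0.14 (exact permutation p = 0.803) in the same order. Adjusted over 4 groups the Pearson p was 0.814 or more and the Spearman p was 0.998. Without the 2 libraries farthest from the median of the VWF locus gene r was -0.09, -0.41, 0.10 and 0.94 in that order, the last over only 4 libraries.

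Genes with the most similar pattern were sought over the 12 fresh-frozen libraries, by correlating log2 CPM after each group's mean was taken away. Among 12578 genes, ENSCAFG00000003190 on chromosome 16 (12965140 to 12995345, 16 exons) was most like the VWF locus gene, with r = 0.90 and rho = 0.92. ENSCAFG00000011200 on chromosome 32 (28354116 to 28403734, 7 exons) was most like ABCB1, with r = 0.94 and rho = 0.96. These are the highest of many values and carry no test. Over the 21 FFPE libraries the same pairs had r = 0.18 and r = 0.16, far below the frozen values. The second gene by likeness kept more of it in FFPE tissue: a single-exon gene on chromosome 26 had r = 0.90 with the VWF locus gene in frozen and r = 0.82 in FFPE libraries, and a 14-exon gene on chromosome 12 had r = 0.93 with ABCB1 in frozen and r = 0.78 in FFPE libraries. The members themselves had r = 0.21 over the 12 frozen libraries and r = -0.01 over the 21 FFPE libraries.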

How the data were processed

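The authors deposited raw counts of fragments per gene. Per the file headers, featureCounts 1.6.0 made them from forward-stranded pairs (strand option 1) whose mapping quality reached 10, over Ensembl release 100 gene models of CanFam3.1. Alignment with STAR and trimming with fastp are named in the submitters' processing notes, with versions not given in the sources used here. Libraries carry molecular identifiers of 12 nt, per the labels' protocols. Whether they were used to collapse reads is not given, so the counting interval given for a single library covers counting error only. Intervals of log2 fold changes come from edgeR and also carry the spread among libraries. Total counts ran from 406406 to 32584840.

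The count test was edgeR 4.0.16 under R 4.3.3 (robust quasi-likelihood F test after TMM scaling and filterByExpr) over all tested genes, with Benjamini-Hochberg adjustment at 0.05. SEs were derived from the F statistic. Group membership and dog numbers come from the labels. Dogs are separate animals by their labels, so each library counted as 1 replicate. In all 130 within-group pairs the counts differed beyond sampling noise (chi-square over its degrees of freedom 17.2 to 494). Technical differences between libraries raise this value too, so it does not test independence. The planned fits between preservations and of the interaction had no term for the dog, and fits with the dog as a block were alternatives. The dog number names the animal, so libraries of both kinds are paired by their labels. The deviations of 7 of 8 pairs correlated above 0.1. Libraries of different dogs were not correlated for comparison, so this does not test the pairing. Ratios used counts plus 0.5, and permutation tests were run in Python 3.11.15 with scipy 1.17.1. Tests were tested on simulated data. DESeq2 1.42.0, limma 3.58.1 and other filters, scalings and subsets were alternatives.

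The members, lists and tests were chosen with earlier results of these data known. The genes named for likeness were the first by correlation among genes averaging at least 2 log2 CPM. Lists of endothelial, barrier and cell type genes were not used, because no identifier was paired with a name.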

Additional observations from a re-analysis of the deposited data

Results flagged for a closer look

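ABCB1 in the FFPE control of dog 50315 stood apart from the other 9 FFPE controls, at 1.64 log2 CPM where the next lowest control, dog 61478, had 3.83. The value rests on 1 count in a library of 406406, the shallowest of the series. Its 95% counting interval (exact Poisson) runs from 0.0745 to 16.4 CPM and so includes the 14.03 CPM of dog 61478. Such a gap was looked for in 9 sets of values, and chance flags about 1 in 20. The 11 FFPE tumours were not checked, because the limits used covered smaller groups only.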

How the results depend on the processing

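No alternative took either gene past the threshold in a planned comparison: 0 of 189 alternative edgeR, DESeq2 or limma fits gave an adjusted p under 0.05, and the smallest was 0.174. ABCB1 kept its direction in each of them. The VWF locus gene changed direction in 12. In fresh-frozen tissue its log2 fold change was -0.054 without grade II tumours, -0.023 with the set as a covariate and -0.65 within set B. The only fresh-frozen tumour of grade II is that of dog 60679. Leaving out grade II there is thus the same fit as leaving out that tumour, and the 12 and the 189 count it under both names. With dogs as a replicate block its interaction was -0.12. Leaving out single libraries gave -0.22 to 0.32 in FFPE and -0.26 to 0.38 in fresh-frozen tissue for this gene. In FFPE tissue it was 0.50 without shared dogs and 0.27 without grade II tumours, where ABCB1 was 0.16 and 0.35. The replicate block by dog changed no call between preservations (0.47 for the VWF locus gene, -0.12 for ABCB1). The log2 ratio of archive-only over shared dogs was 0.95 without set B and 0.81 in French Bulldogs alone. Leaving out single dogs gave log2 ratios of 0.39 to 0.71 between preservations and 0.59 to 1.16 between breeds. Of these, 0.71 (without dog 60749, exact permutation p = 0.0313), 1.06 (without tumour 60177, exact p = 0.0388) and 1.16 (without tumour 60461, exact p = 0.0292) passed unadjusted. The causes were not tested. Over all genes, 2819 of 13338 passed in FFPE tissue (21.1%). There were 1573 of 6347 (24.8%) with libraries thinned to the shallowest total, 1250 of 13132 (9.52%) without shared dogs, and 103 of 13977 (0.737%) when only the 14 libraries whose label gives an age were kept and age was fitted. In fresh-frozen tissue 4597 of 15057 passed (30.5%), against 1940 of 6921 (28%) thinned. There were 6051 (40.2%) with the set as a covariate, 2291 within set A and 0 within set B. The sets were drawn from these same libraries, so the count with the set as a covariate is favoured by construction. Between preservations 504 of 17097 passed (2.95%), against 1135 with DESeq2 and 655 with the dog as a block. Leaving out 1 dog gave 165 of 16913 (without dog 60679) to 773 of 17527 (without dog 60749). ABCB1 was not tested between breeds within FFPE controls, because the filter there needed enough counts in every library and control 50315 had 1. The other FFPE controls of these breeds had 44 to 188 counts of ABCB1. Standard errors of tumour over control cannot be compared by depth between preservations, because the number of libraries differed too. The 21 FFPE libraries gave 0.28 for ABCB1 and 0.42 for the VWF locus gene. The 12 frozen libraries, mostly deeper, gave 0.40 and 0.47. Each was larger after thinning to the shallowest total. ABCB1 then had 0.34 with FFPE libraries and 0.47 with frozen ones, and the VWF locus gene had 0.43 and 0.50.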

Other observations

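The 26-exon gene ENSCAFG00000001833, which lies in the gap of ABCB1, had 3 to 105 counts in 6 fresh-frozen tumours and 70 to 266 in 6 fresh-frozen controls. Its log2 fold change was -1.93 (edgeR adjusted p = 0.0230). In FFPE tissue it had too few counts to be tested, with 0 counts in 3 of 11 tumours and in 1 of 10 controls. It was chosen after its values were seen. Within 400 kb of ABCB1, 0 of 8 other tested genes rose and 4 fell in fresh-frozen tumours, and 0 of 7 were higher and 1 lower in FFPE tumours. Within 400 kb of the VWF locus gene, 7 of 14 rose and 2 fell in fresh-frozen tumours, and 4 of 13 were higher and 1 lower in FFPE tumours. Over all genes 18.3% rose and 12.2% fell in fresh-frozen tumours, and 10.1% and 11.1% in FFPE tumours.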
